A study of Homo sapiens with 4 samples.

Results

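The 10 genes of activin and BMP signaling described here are the ligand subunit genes INHBA and INHBB, the ligand genes BMP2, BMP4 and BMP6, the antagonist genes FST and GREM1, and the target genes ID1, ID2 and ID3. They are 10 of the 58226 gene IDs in the files and were matched by Ensembl ID to GENCODE 29. They were chosen with the data known, because INHBA and BMP6 were higher after siRNA against LINC00461, so their values in that comparison are a description. The cells were U87MG, an established glioblastoma line, and R-U87MG, a derivative selected for resistance to the alkylating drug temozolomide (TMZ) and kept in medium with 50 μM TMZ. U87MG received si-NC, a non-targeting control siRNA, or si-LINC00461, against a long non-coding RNA. R-U87MG received si-NC or si-HDAC6, against a mainly cytoplasmic deacetylase, and RNA of all 4 conditions was taken 72 h after transfection. Each condition has 1 library, so no difference below has a replicate check and none has a p-value. The siRNA pairs also differ in cell line, and therefore the effects of the siRNAs cannot be told apart from those of the lines when the pairs are set side by side.

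Activins and BMPs are secreted dimers of the TGF-β family. They bring type II and type I receptor kinases together, after which activins act mainly through SMAD2 and SMAD3 and BMPs through SMAD1, SMAD5 and SMAD9, each with SMAD4. Follistatin, the product of FST, binds activins and keeps them from their receptors, and gremlin 1, the product of GREM1, does the same to BMPs. ID1, ID2 and ID3 are direct BMP targets in many cells, and their proteins hold back bHLH transcription factors by dimerizing with them. In glioma cells, BMP signaling is known for its link to astrocytic differentiation and ID genes for their link to self-renewal.

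The libraries hold 20027865 fragments for U87MG si-NC, 17777046 for U87MG si-LINC00461, 16639551 for R-U87MG si-NC and 12596072 for R-U87MG si-HDAC6. A level of 3 counts, taken as the smallest measurable one, equals 0.150 to 0.238 CPM, which are counts scaled to a common library total. The siRNA targets were lower in their own comparison, HDAC6 at 67 counts with si-HDAC6 and 296 with si-NC, and LINC00461 at 73 counts with si-LINC00461 and 363 with si-NC. Of the line's expected markers, VIM, CD44, NES, NOTCH2 and CHI3L1 were measured in every library, whereas GFAP, SOX2 and S100B had at most 13 counts in any. Both U87MG libraries stood apart. All 18 transcripts of a list of pancreatic acinar genes, chosen after their values were seen, were above 3 counts there and summed to 3960 counts with si-NC and 7519 with si-LINC00461, or 0.0198% and 0.0423% of all counts. In R-U87MG they summed to 217 and 107 counts (0.00130% and 0.000849%), and 15 of the 18 were at 0. Their part in the results below was not tested, nor was whether these libraries hold RNA of other cells, which would bear on every U87MG value.

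INHBA lies on chromosome 7 (41667168 to 41705834, minus strand, GRCh38), FST on chromosome 5 (53480409 to 53487134, plus), BMP2 on chromosome 20 (6767664 to 6780280, plus) and BMP6 on chromosome 6 (7726797 to 7881422, plus). ID1 is also on chromosome 20 (31605283 to 31606515, plus), and ID2 is on chromosome 2 (8678845 to 8684453, plus). INHBB, BMP4, GREM1 and ID3 lie on chromosomes 2, 14, 15 and 1. The 10 members are therefore spread over 8 chromosomes, and the pairs on chromosomes 2 and 20 are far apart. On the opposite strand, INHBA overlaps INHBA-AS1, which had at most 2 counts in any library, ID2 overlaps ID2-AS1, which had at most 7, and GREM1 overlaps AC090877.2, which had 0 in all 4. The library kit kept strand, but whether the counting used it is not given in the sources used here.

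The promoters of 3 members that were higher together after si-LINC00461 and of 2 targets that were not are shown for their sequence, since the comparison below turns on these genes. Each window runs from 250 bases before to 50 bases after the start that RefSeq annotates (GRCh38.p14), on the strand of the gene. BMP2, which was also higher, had no window in the reference used and is named only. Capitals mark matches, on either strand, to TGANTCA (AP-1), TGACGTCA (the cyclic AMP element), GGCGCC (a BMP response motif), GTCTAGAC (a SMAD palindrome), CAGCTG (an E-box) or GGGCGG (a GC box), none of which overlap each other here. The windows lie at chr7:41703041-41703340 (minus) for INHBA, chr6:7725849-7726148 (plus) for BMP6, chr5:53480379-53480678 (plus) for FST, chr20:31605039-31605338 (plus) for ID1 and chr2:8681806-8682105 (plus) for ID2.
INHBA: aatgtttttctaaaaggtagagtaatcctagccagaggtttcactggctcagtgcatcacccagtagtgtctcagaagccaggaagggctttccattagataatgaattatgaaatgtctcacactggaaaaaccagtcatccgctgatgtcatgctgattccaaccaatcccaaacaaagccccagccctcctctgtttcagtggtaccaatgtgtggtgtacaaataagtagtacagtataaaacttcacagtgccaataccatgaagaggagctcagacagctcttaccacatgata
BMP6: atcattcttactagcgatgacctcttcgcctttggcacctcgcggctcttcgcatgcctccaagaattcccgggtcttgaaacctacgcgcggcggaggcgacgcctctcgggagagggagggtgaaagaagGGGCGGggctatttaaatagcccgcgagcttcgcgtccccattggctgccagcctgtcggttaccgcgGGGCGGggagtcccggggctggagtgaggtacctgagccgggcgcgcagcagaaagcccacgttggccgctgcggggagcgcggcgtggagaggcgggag
FST: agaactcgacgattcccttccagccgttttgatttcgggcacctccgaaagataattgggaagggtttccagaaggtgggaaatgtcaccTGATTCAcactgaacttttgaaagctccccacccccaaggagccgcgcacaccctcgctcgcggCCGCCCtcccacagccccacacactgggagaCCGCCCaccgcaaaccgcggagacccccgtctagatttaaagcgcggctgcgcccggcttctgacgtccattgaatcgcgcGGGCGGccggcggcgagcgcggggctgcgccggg
ID1: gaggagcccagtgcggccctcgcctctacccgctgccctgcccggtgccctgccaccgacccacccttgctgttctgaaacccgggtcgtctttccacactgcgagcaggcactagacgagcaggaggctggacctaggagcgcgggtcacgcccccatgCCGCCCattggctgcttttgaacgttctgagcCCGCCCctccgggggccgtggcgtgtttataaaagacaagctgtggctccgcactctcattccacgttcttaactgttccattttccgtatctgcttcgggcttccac
ID2: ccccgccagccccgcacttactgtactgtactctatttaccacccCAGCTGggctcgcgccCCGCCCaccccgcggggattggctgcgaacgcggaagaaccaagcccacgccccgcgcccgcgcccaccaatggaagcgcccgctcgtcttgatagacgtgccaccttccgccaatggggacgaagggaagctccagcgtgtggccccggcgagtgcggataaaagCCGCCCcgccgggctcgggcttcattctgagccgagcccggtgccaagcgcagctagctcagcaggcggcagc

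No capital stands in the INHBA window, which had a GC content of 43.3%, against a median of 58.7% over the 35116 windows of the table. BMP6 had GC boxes from positions −118 and −50, and FST had GC boxes from −96, −65 and 17 and an AP-1 match from −160. ID1 had GC boxes from −90 and −58, and ID2 had them from −189 and −23, with an E-box from −205. A GC box was present in 45.0% of all windows, an E-box in 17.9% and an AP-1 match in 7.71%. The BMP response motif, found in 19.2% of all windows, and the SMAD palindrome, found in 0.202%, were in none of these 5, nor was the cyclic AMP element, found in 1.85%. Among all 12 windows of the members, 3 held the BMP response motif, those of INHBB, BMP4 and GREM1. INHBA, BMP6 and FST had no searched motif in common, and the GC box of BMP6 and FST was also in ID1 and ID2. These genes were grouped by the comparison below, so nothing is read from motifs shared or absent. A match is a run of letters and not a shown binding site. Sequence outside the windows was not searched, so a motif absent here may stand elsewhere near the gene. For INHBA and ID2 the window lies inside the gene span given above, so starts annotated further upstream were not covered.

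**Figure D1:**
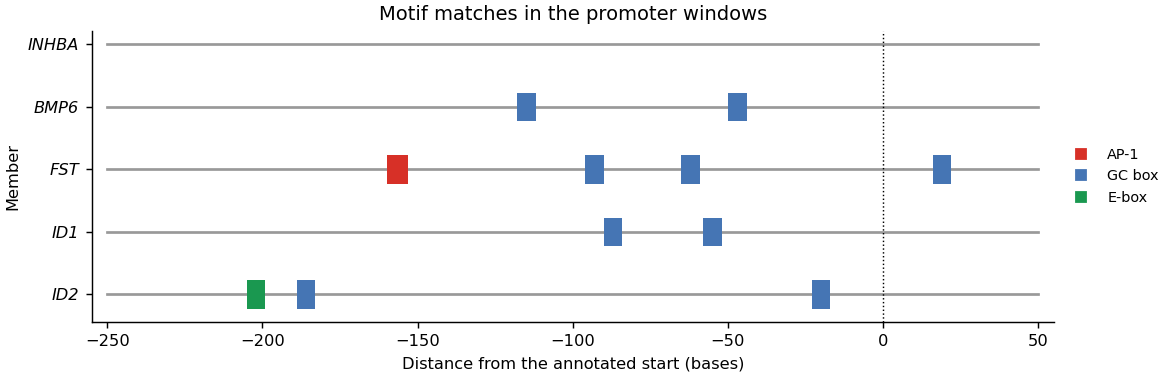
Motif matches in the promoter windows of 5 members, with the distance in bases from the start that RefSeq annotates on the horizontal axis (0, dotted) and 1 row per gene, each block being 1 match colored by motif. INHBA holds no match, and GC boxes are in the other 4 windows.

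Levels of different genes were compared per length, as TPM, in which counts are divided by the union of a gene's annotated exons and scaled to a common total. The ID genes were the most abundant. ID1 had 287 TPM in U87MG si-NC, 294 in U87MG si-LINC00461, 300 in R-U87MG si-NC and 314 in R-U87MG si-HDAC6, the highest of the members in each library. ID2 came next in 3 libraries, with 91.0, 48.1, 68.8 and 53.5 TPM in the same order, and in U87MG si-LINC00461 its 95% counting interval, 43.8 to 52.8 TPM, overlapped that of BMP2. These intervals are exact binomial ones (Clopper-Pearson), and they cover counting error alone, because no condition has a replicate library. Whether PCR copies of a molecule were removed before counting is not given in the sources used here. ID3 is listed at 0 in all 4 libraries. RPS18, a ribosomal protein gene, and TUBB, a tubulin gene, which every cell uses, are also listed at 0 in all 4, so no level is given for ID3.

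Among the ligands, BMP2 was the most abundant, with 12.1 TPM in U87MG si-NC, 51.0 in U87MG si-LINC00461, 39.0 in R-U87MG si-NC and 37.3 in R-U87MG si-HDAC6. It made up 79.1% to 96.6% of the summed TPM of BMP2, BMP4 and BMP6. BMP6 had 2.43, 13.3, 1.60 and 1.29 TPM in that order, so the U87MG si-LINC00461 library was the high one and the other 3 had overlapping intervals. BMP4 had 1, 3, 2 and 0 counts, at or under the floor of 3 counts in every library. INHBA had 2.21, 15.2, 1.13 and 2.32 TPM, and INHBB, whose product forms activin B, had 4, 3, 3 and 0 counts. Of INHBA and INHBB, INHBA was therefore the one above the floor in every library.

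Of the antagonists, FST had 5.76 TPM in U87MG si-NC, 13.8 in U87MG si-LINC00461, 6.84 in R-U87MG si-NC and 8.15 in R-U87MG si-HDAC6, again with the highest level in U87MG si-LINC00461. GREM1 had 9, 3, 13 and 9 counts, or 0.0480 to 0.221 TPM over its long annotated exons. The balance of FST to INHBA is given as a description, since INHBA was chosen for its level after si-LINC00461. Per length, FST was 2.60 times INHBA in U87MG si-NC (95% interval 1.90 to 3.56), 0.905 times (0.758 to 1.07) in U87MG si-LINC00461, 6.03 times (4.06 to 9.11) in R-U87MG si-NC and 3.51 times (2.46 to 5.02) in R-U87MG si-HDAC6. The ratio was lowest in the si-LINC00461 library, where INHBA was highest. The same balance for GREM1 and BMP4 could not be given, since BMP4 was at the floor.

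**Figure D2:**
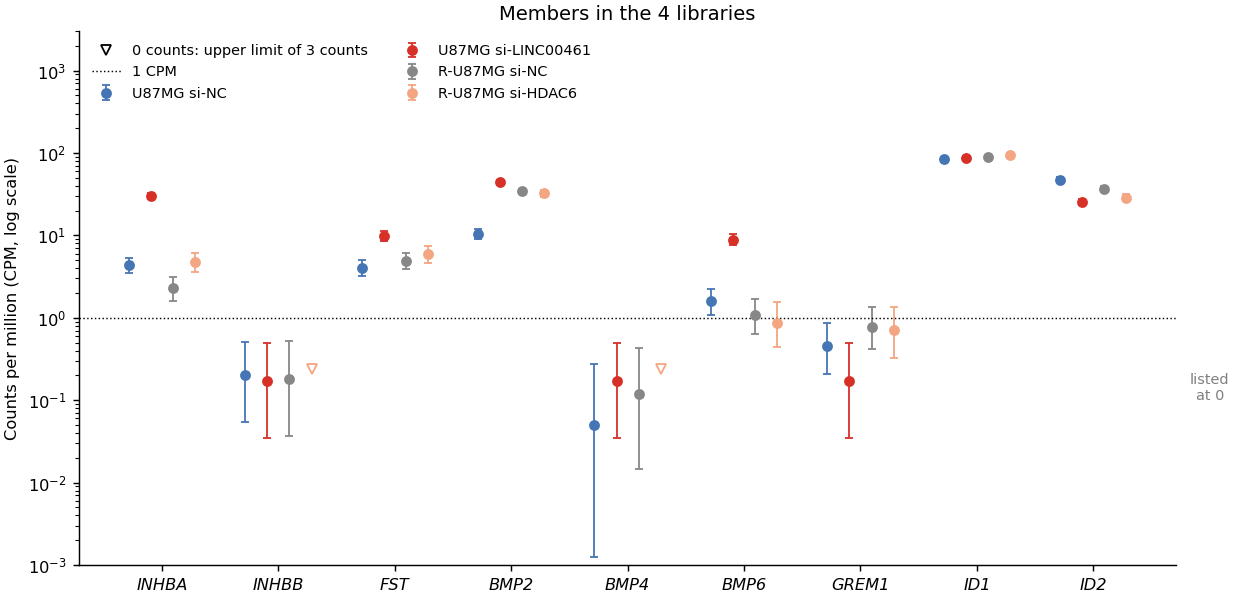
Level of each member in CPM on a log axis, with 1 point per library and bars for the 95% exact binomial interval of counting error, and open triangles at 3 counts where a library had 0. The si-LINC00461 library is the highest for INHBA, FST, BMP2 and BMP6, ID1 is level across the 4, and INHBB, BMP4 and GREM1 lie under 1 CPM.

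**Figure D3:**
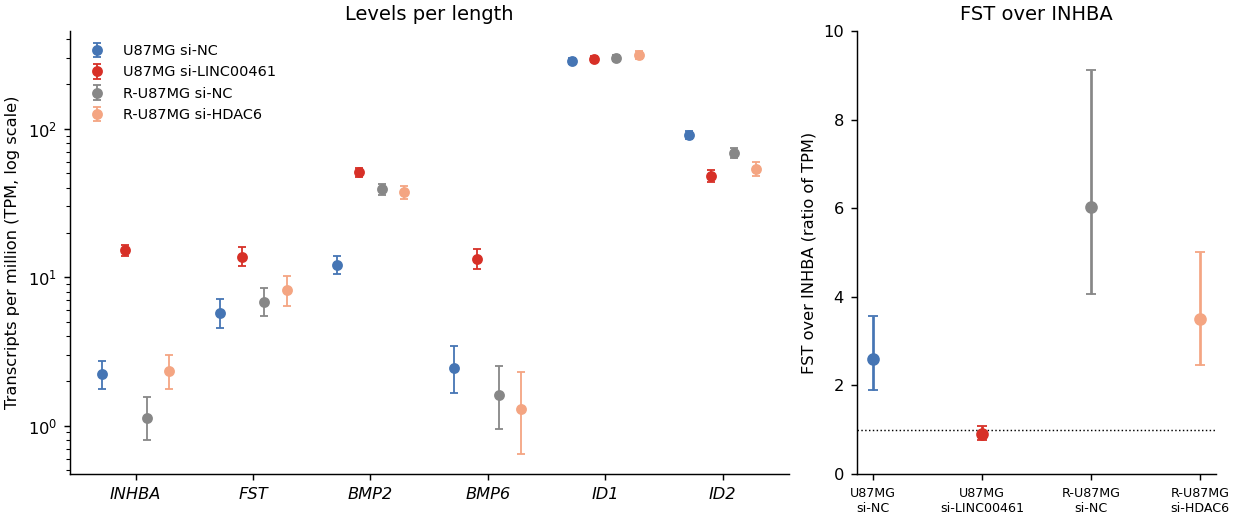
Left, TPM on a log axis of the 6 members averaging 1 CPM or more in the U87MG pair, by library, with 95% counting intervals. Right, the ratio of FST to INHBA in TPM by library on a linear axis, with its 95% interval and a dotted line at 1, which the U87MG si-LINC00461 interval (0.758 to 1.07) crosses.

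The 1st comparison, si-LINC00461 relative to si-NC in U87MG, bears on which genes differ after this siRNA. The study lists 1 sequence against LINC00461 and several for si-NC. Effects of that sequence itself therefore cannot be told apart from those of LINC00461 depletion. INHBA, FST, BMP2 and BMP6 were higher, ID2 was lower by less than 2-fold, and ID1 was level. Ratios were normalized by TMM with a pseudocount of 0.5, which understates the differences of low genes, and genes averaging 1 CPM or more over the pair were compared. Of the 10 members 6 were compared, and 4 were at least 2-fold higher and 0 at least 2-fold lower. Of all 13210 genes compared, 5.42% were at least 2-fold higher and 8.17% at least 2-fold lower. Because the members were chosen on this contrast, nothing is read from their count.

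INHBA had 87 counts with si-NC and 541 with si-LINC00461 (4.34 and 30.4 CPM), a log2 ratio of 2.82 (95% interval 2.49 to 3.17) or 7.05-fold, which was rank 56 from the top of the genes compared. BMP6, a ligand also known from iron regulation, had 32 and 158 counts (1.60 and 8.89 CPM), a log2 ratio of 2.47 (1.94 to 3.09). BMP2, a ligand best known from bone formation, had 206 and 786 counts (10.3 and 44.2 CPM), a log2 ratio of 2.12 (1.90 to 2.35). The intervals of these 3 ligand genes lay beyond 1 on the log2 scale. FST had 81 and 175 counts (4.04 and 9.84 CPM), a log2 ratio of 1.29 (0.91 to 1.70), so its interval reached below 2-fold. INHBA and its antagonist were thus both higher, with the log2 ratio of INHBA the larger of the pair.

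The interval of neither ID1 nor ID2 lay above 0 in this pair. ID1 had 1675 counts with si-NC and 1552 with si-LINC00461, a log2 ratio of 0.08 (−0.02 to 0.18), with 0 inside the interval. ID2 had 951 and 454 counts, a log2 ratio of −0.88 (−1.04 to −0.72). GREM1 had 9 and 3 counts, a ratio of 0.419 with a counting interval of 0.0661 to 1.52, and INHBB had 4 and 3 counts, with an interval of 0.125 to 5.05 for the ratio. For these low members a difference was not detectable at this depth. BMP4, at 1 and 3 counts, is given no ratio.

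Other measures moved in the same pair. All 18 acinar genes were higher in si-LINC00461, with a median log2 ratio of 1.10. All 8 proliferation markers were lower, with a median of −2.03, and their summed level was 1046 CPM with si-NC and 211 with si-LINC00461. Of 6 endothelial markers 5 were above 3 counts in each U87MG library, and their summed level was 9.49 and 37.2 CPM, with PECAM1 at 52 and 433 counts, TIE1 at 7 and 92, CDH5 at 7 and 14, VWF at 8 and 16, KDR at 115 and 107 and CLDN5 at 1 and 0. The leukocyte markers summed to 438 and 743 CPM, of which CD68 made up most, whereas CSF1R had 268 and 149 counts and PTPRC 0 and 2. The neuron markers summed to 66.1 and 135 CPM, with SNAP25 at 1075 and 2057 counts, SYT1 at 146 and 195 and GAD1 at 98 and 146. RBFOX3 had 3 and 0 counts, SLC17A7 1 and 1, and STMN2 0 and 2. Of the glioma cell line markers, CHI3L1 had 2002 and 63189 counts (log2 ratio 5.17) and VIM had a log2 ratio of −0.98. Of 68 ribosomal protein genes compared 62 were below 0, with a median log2 ratio of −0.38. The part of these in the levels of INHBA, FST, BMP2 and BMP6 was not tested. In bulk RNA, fewer cells of a type and less RNA per cell cannot be told apart.

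**Figure D4:**
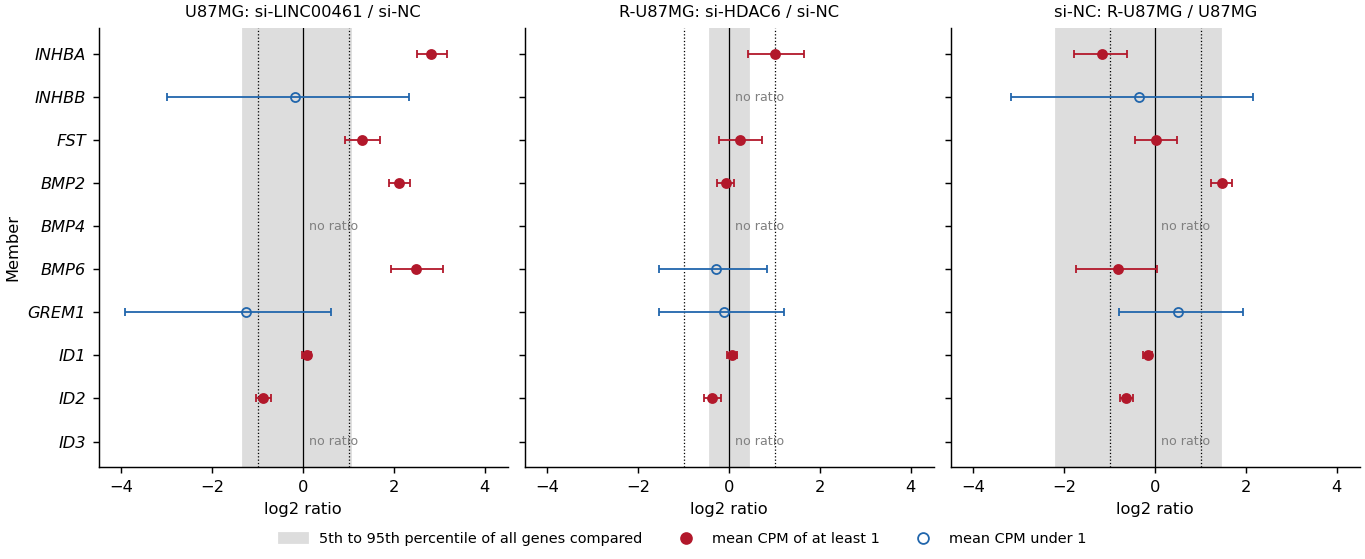
Log2 ratios of the members in the 3 comparisons, with bars for the 95% counting interval, the 5th to 95th percentile of all genes compared in gray, and dotted lines at 2-fold. After si-LINC00461, INHBA, BMP6 and BMP2 stand at 2.82, 2.47 and 2.12, and after si-HDAC6 only INHBA, at 1.02, is past 2-fold among the members compared (filled points).

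The 2nd comparison, si-HDAC6 relative to si-NC in R-U87MG, bears on HDAC6 depletion in resistant cells. INHBA was higher by about the threshold and ID2 was lower by less than 2-fold, while the intervals of BMP2, FST and ID1 held 0. Of the 10 members 5 were compared, 1 was at least 2-fold higher and 0 were at least 2-fold lower, against 0.694% higher and 0.747% lower of all 13120 genes compared. INHBA had 38 counts with si-NC and 59 with si-HDAC6 (2.28 and 4.68 CPM), a log2 ratio of 1.02 with a wide interval of 0.41 to 1.65. With a pseudocount of 5 the log2 ratio of INHBA was 0.97, so the call ended. LINC00461 itself was lower in this pair too, with 154 and 80 counts, a log2 ratio of −0.55 (−0.96 to −0.15).

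BMP2 had 567 counts with si-NC and 411 with si-HDAC6, a log2 ratio of −0.07 (−0.26 to 0.11). FST had 82 and 74 counts, a log2 ratio of 0.24 (−0.23 to 0.71), and BMP6 had 18 and 11, a log2 ratio of −0.29 (−1.55 to 0.84). In contrast to the LINC00461 pair, none of the 3 intervals reached 2-fold higher, and that of BMP6, which had a mean CPM under 1, also spanned 2-fold lower. ID1 had 1493 and 1185 counts, a log2 ratio of 0.06 (−0.05 to 0.17). ID2 had 612 and 361 counts, a log2 ratio of −0.37 (−0.56 to −0.18), which was below 0 by more than its counting error, as in the other pair. GREM1 had 13 and 9 counts (log2 interval −1.55 to 1.20), and INHBB and BMP4, at 3 counts or fewer in both libraries, are given no ratio. Of the 18 acinar genes 15 were at 0 in both libraries of this pair and CPB1 had 207 and 98 counts, and the proliferation markers had a median log2 ratio of −0.26. Whether the siRNA effect on any member differed between the lines was not tested.

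The control libraries were also set side by side, R-U87MG si-NC against U87MG si-NC, after the separate scaling of the pairs had been undone. This comparison shares a control library with each of the others, so no relation between its values and theirs is given. Of the 6 members compared, BMP2 was at least 2-fold higher and INHBA at least 2-fold lower in R-U87MG, against 11.2% higher and 15.0% lower of the 13349 genes compared. BMP2 had 206 counts in U87MG and 567 in R-U87MG, a log2 ratio of 1.46 (1.23 to 1.70), and INHBA had 87 and 38, a log2 ratio of −1.18 (−1.78 to −0.63). BMP6 had a log2 ratio of −0.81 (−1.75 to 0.05), ID2 of −0.63 (−0.78 to −0.48), FST of 0.02 (−0.44 to 0.48) and ID1 of −0.16 (−0.26 to −0.06). BMP2 was thus the ligand gene with the higher level in R-U87MG, while the intervals of INHBA, ID2 and ID1 lay below 0. Scaling by total counts raised the median log2 ratio of all genes from 0.02 to 0.28, and the genes at least 2-fold higher and lower went from 1494 and 2008 to 2399 and 1494. Under it ID1 was at 0.10, with the opposite sign, and INHBA at −0.92, under 2-fold, so both are given relative to that shift.

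The other genes of the pathway were taken in 7 lists with 120 genes, of which 72 were compared in the U87MG pair. After si-LINC00461, 5 were at least 2-fold higher and 11 at least 2-fold lower, beside 5.42% and 8.17% of all genes compared. The median log2 ratio was 0.0020, against −0.0026 over all genes. Some passed the 1 CPM filter only through their higher library. Of the higher genes, SOST (0.649 CPM) and HES1 (0.449 CPM) were under 1 CPM with si-NC. Of the lower ones, TGIF2 (0.844 CPM) and MSX1 (0.788 CPM) were under it with si-LINC00461. With a filter at 5 CPM, 3 were higher and 9 lower. In the R-U87MG pair, 74 were compared, and 0 were at least 2-fold higher or lower, with a median log2 ratio of −0.01, the same to 2 decimals as over all genes. The lists were written with earlier results known, and nothing is called particular to them.

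Among 28 other ligand genes, 8 were compared after si-LINC00461, and 1 was at least 2-fold higher and 2 lower. TGFB3 had 148 counts with si-NC and 526 with si-LINC00461 (log2 ratio 2.01), whereas INHBE, a further inhibin subunit gene, had 264 and 38 (−2.59) and GDF5, a BMP-like ligand gene of joints, had 584 and 190 (−1.43). Ligand genes of the same family thus stood on both sides. Among 18 other antagonist genes, 8 were compared, and 1 was higher and 3 lower. SOST, which encodes sclerostin, had 13 and 25 counts (1.10, interval 0.11 to 2.22). CHRDL1, a BMP-binding chordin-like gene, had 196 and 32 (−2.41), and CRIM1, a membrane protein gene that binds BMPs, had 3997 and 699 (−2.33). TWSG1, a gene for a further secreted BMP-binding protein, had 1777 and 736 (−1.08). Of the 8 antagonist genes compared, 3 lay above 0 and 5 below, so like the ligand genes they did not move one way. SOST, the only one at least 2-fold higher, passed the filter only through the si-LINC00461 library.

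Of 20 receptor genes 14 were compared, and 1 was higher and 1 lower, with a median log2 ratio of 0.17. ACVR1B, the type I receptor gene of activin, was the highest, with 532 and 1046 counts (1.16), and ACVR2B, a type II receptor gene, was the lowest, with 927 and 257 (−1.66). The SMADs and their regulators were all compared, 15 of 15, and 0 were at least 2-fold higher and 4 lower, with a median of −0.11. SMAD5, of the BMP branch, had 1635 and 279 counts (−2.36), SMAD9, of the same branch, had 199 and 70 (−1.31), and SMAD3, of the activin branch, had 4701 and 1212 (−1.77). TGIF2, a gene for a SMAD corepressor, had 63 and 15 (−1.85), and TGIF1, its relative, was the highest of the list with 1009 and 1664 (0.91). The other receptor-activated SMAD genes were not lower by 2-fold, with SMAD1 at 207 and 223 counts (0.29, interval 0.02 to 0.57) and SMAD2 at 1404 and 1145 (−0.11, interval −0.22 to 0.01).

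Of 16 genes listed as BMP SMAD targets, ID1, ID2 and ID3 apart, 12 were compared, with 0 higher, 2 lower and a median log2 ratio of −0.04. The lower ones were SMAD9, given above, and MSX1, a homeobox gene, with 48 and 14 counts (−1.55). Of 19 listed activin and TGF-β targets 16 were compared, with 1 higher, 0 lower and a median of −0.02. The higher one was TIMP1, an inhibitor of metalloproteinases, with 2228 and 11552 counts (2.56). Of 11 bHLH genes, whose products ID proteins bind or may oppose, 4 were compared, and HES1, a Notch target, was higher with 9 and 42 counts (2.35, interval 1.35 to 3.63). Genes of each target list lay on both sides of 0, 6 above and 6 below among the BMP targets, where ID4, a further ID gene, was the highest with 25 and 43 counts (0.96, interval 0.23 to 1.74), and 7 above and 9 below among the activin and TGF-β targets. After si-HDAC6, the highest of all these genes was HES1, at 22 and 32 counts (log2 ratio 0.92), the receptors ranged from −0.43 (ACVR1C) to 0.29 (BAMBI), and the SMADs and regulators from −0.44 (SMAD6) to 0.16 (SMAD3).

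**Figure D5:**
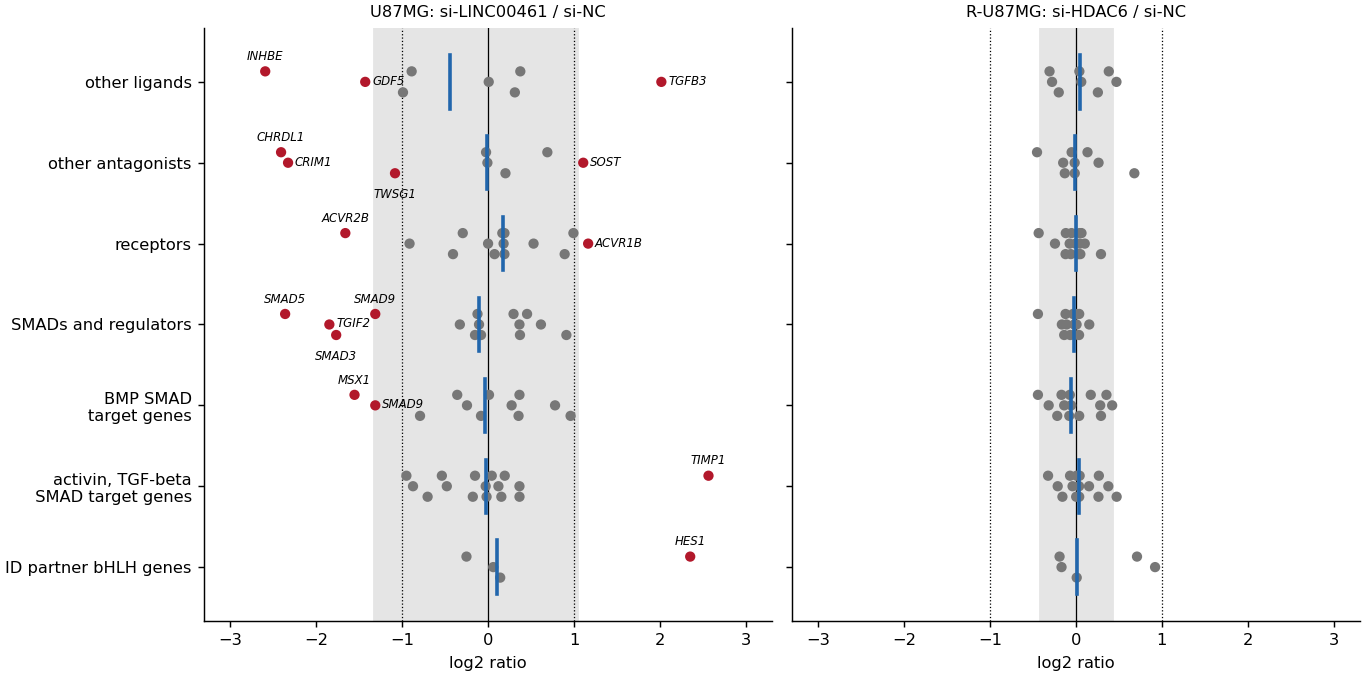
Log2 ratios of the genes of the 7 pathway lists averaging 1 CPM or more, for si-LINC00461 relative to si-NC in U87MG (left) and si-HDAC6 relative to si-NC in R-U87MG (right), with list medians as blue bars, genes at least 2-fold different in red, and the 5th to 95th percentile of all genes compared in gray. On the left 5 genes are past 2-fold upward and 11 downward (SMAD9 is in 2 lists), and on the right there are 0.

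The genes most like INHBA and BMP6 over the 4 libraries were found by the distance between centered profiles of log2(CPM + 0.5), over 13369 genes averaging 1 CPM or more. The nearest to INHBA was CSF3, which encodes a granulocyte growth factor, at a distance of 0.216, with 301, 2030, 197 and 299.8 CPM in U87MG si-NC, U87MG si-LINC00461, R-U87MG si-NC and R-U87MG si-HDAC6. It was followed by PTGS2, the inducible cyclooxygenase gene, at 0.269 with 38.0, 208, 22.7 and 34.8 CPM, and by AP3B2 at 0.352. The nearest to BMP6 were HIST1H2BC, a histone gene, at 0.0941 with 3.79, 17.9, 2.58 and 2.06 CPM, STAC2 at 0.209 and CFI, a complement factor gene, at 0.261. Each of these 6 genes had its highest level in U87MG si-LINC00461, which follows from choosing them for their likeness to INHBA and BMP6. With 4 libraries these distances describe the profiles and are no measure of a relation.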

How the data were processed

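The 4 RNA-seq libraries, 1 for each condition, were made with a strand-specific kit. Per the labels, the submitters' processing notes name bcl2fastq, Trimmomatic 0.36, HISAT2 and GRCh38.p13. The program and annotation used for counting are not given in the sources used here. The values deposited by the authors are estimated counts of fragments per gene, multiplied by 1 factor per library, and the U87MG and R-U87MG pairs were scaled separately. Each value was divided by its factor (0.939, 1.06, 0.869 and 1.15 for U87MG si-NC, U87MG si-LINC00461, R-U87MG si-NC and R-U87MG si-HDAC6) and rounded. Up to 5000 fragments, 94.1% to 94.5% of values above 0 lay within 0.02 of a whole number, and all values of the members did. The estimates were thus used as counts, with the alignment and the splitting of shared fragments already in them.

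Each pair was normalized by TMM (edgeR 4.0.16, R 4.3.3). The log2 ratio used a pseudocount of 0.5, with 95% exact binomial intervals, and genes averaging 1 CPM or more over the pair were compared at a threshold of 2-fold. CPM were taken over the recovered total and TPM over union exon lengths of GENCODE 29, in which 57888 of 58226 IDs were found. Promoters came from RefSeq, where 9 of the 10 members matched. The ratios and intervals were tested on simulated counts with counting error only. That test did not cover the recovery of counts, the TMM step or variation between replicates. Alternatives were total counts, DESeq2 1.42.0 size factors, upper-quartile scaling, pseudocounts of 0.1 and 5, libraries thinned to 12596072 fragments, other filters, a 1.5-fold threshold, intervals wholly beyond 2-fold and the longest transcript as length. With 1 library per condition no test was made.

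Members, lists and tests were chosen with earlier results of these data known. Genes named beside the members are, by rule, the targets of the siRNAs, genes overlapping a member, at most 4 genes per list and siRNA comparison at least 2-fold different, the lowest and highest receptor and SMAD list genes, and the 3 nearest profiles of INHBA and of BMP6. SMAD1, SMAD2, ID4, RPS18, TUBB, RPS9 and RPL7A were named after their values were seen. Marker genes were named from their lists, and 1 antagonist gene of the lists is not reported here. Scripts ran under Python 3.11.15 with pandas 2.3.3, numpy 2.4.6, scipy 1.17.1 and matplotlib 3.10.9.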

Additional observations from a re-analysis of the deposited data

How the results depend on the processing

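No paired analysis was possible because each condition has 1 library, and no library could be left out for the same reason. Of 138 log2 ratios of members under another scaling, pseudocount or depth, 135 stayed inside the counting interval and 3 did not (BMP2 at 1.73, ID1 at 0.10 and ID2 at −0.37, with total counts between the controls), and 0 of the members past 2-fold changed sign. In the U87MG pair INHBA, FST, BMP2 and BMP6 ranged over 2.76 to 2.84, 1.25 to 1.36, 2.06 to 2.14 and 2.33 to 2.62. After si-HDAC6, INHBA ranged over 0.97 to 1.06.

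For the members, omitting the filter on low counts gave 1 lower gene (GREM1) in the U87MG pair and 2 (INHBB and BMP4, both at 3 counts or fewer) in the R-U87MG pair, and 1.5-fold gave 1 lower gene (ID2) in the U87MG pair. After si-HDAC6, the higher count was 0 with a pseudocount of 5, with a filter at 5 CPM and with intervals wholly beyond 2-fold. Between the controls, the lower count was 0 with total counts, with a filter at 5 CPM and with intervals wholly beyond 2-fold, and 3 at 1.5-fold.

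For all genes without the filter, 3799 were higher and 4243 lower after si-LINC00461, 2465 and 3050 after si-HDAC6, and 4772 and 5793 between the controls. At 1.5-fold these were 1871 and 2222, 352 and 330, and 3077 and 3346. With intervals wholly beyond 2-fold they were 380 and 631 after si-LINC00461 and 16 and 16 after si-HDAC6, and 846 were higher between the controls. With a filter at 5 CPM, 442 were higher after si-LINC00461 and 16 higher and 16 lower after si-HDAC6. A pseudocount of 5 left 43 lower after si-HDAC6, and total counts gave 2399 higher between the controls.

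For the pathway lists, 19 were higher without the filter after si-LINC00461, 3 higher with a filter at 5 CPM, and 12 higher and 18 lower at 1.5-fold. After si-HDAC6, 5 were higher and 10 lower without the filter, 3 higher at 1.5-fold and 1 higher in thinned libraries. Between the controls, 21 were higher without the filter and 5 with a filter at 5 CPM. The ratio of FST to INHBA by longest transcript ran from 0.773 (U87MG si-LINC00461) to 5.16 (R-U87MG si-NC), inside the counting interval in each of the 4 libraries. Some TPM levels left their intervals under this length. In U87MG si-NC, ID1 was at 215, ID2 at 73.7 and BMP2 at 9.05, whereas INHBA, FST and BMP6 stayed inside. In U87MG si-LINC00461, BMP2 was at 38.6 and ID2 at 39.4, the reverse of their order by union exons. The GREM1 to BMP4 ratio was not run, since BMP4 was at the floor. The causes of these differences were not tested, beyond the fewer or more genes that a filter or threshold admits by construction. Depth limits what can be said of INHBB, BMP4 and GREM1, and the missing replicates limit every difference. Some ribosomal protein genes were also listed low. In U87MG si-NC, U87MG si-LINC00461, R-U87MG si-NC and R-U87MG si-HDAC6, RPS9 had 10, 6, 13 and 10 counts and RPL7A 3, 2, 5 and 2. The median of the ribosomal protein genes was 130 CPM. Whether the counting understated INHBB, BMP4 and GREM1 was not tested.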

Other observations

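Between the control libraries, 74 genes of the pathway lists were compared, and 10 were at least 2-fold higher and 19 at least 2-fold lower in R-U87MG, with a median log2 ratio of −0.31 (11.2% and 15.0% of all genes compared were past 2-fold, with a median of 0.02). Scaling by total counts gave 15 higher and 16 lower, and a filter at 5 CPM gave 5 higher and 17 lower. Some genes passed the 1 CPM filter only through their higher library, among them BAMBI, at 0.799 CPM in U87MG si-NC. BAMBI, which encodes a pseudoreceptor that dampens TGF-β family signals and is itself a BMP target, had 16 counts in U87MG si-NC and 741 in R-U87MG si-NC, the highest log2 ratio of the lists (5.49). GDF5, with 584 and 34 counts, had the lowest (−4.08). INHBE (264 and 29 counts, −3.16) and CHRDL1 (196 and 18, −3.41) were also lower in R-U87MG, as was SMAD3 (4701 and 1138, −2.04). SMAD5, with 1635 and 1731 counts, had a log2 ratio of 0.09. These libraries also differ in the acinar transcripts and in TMZ in the medium, and the part of each was not tested.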
